A study of Mus musculus with 6 samples.

Results

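Transcripts of 36 mouse genes of endoplasmic reticulum (ER) protein folding and the unfolded protein response (UPR) were compared between cultured J110 and SSM3 mammary cancer cells. The genes were chosen by name, as ER chaperones, disulfide isomerases and oxidases, ER-associated degradation (ERAD) factors, UPR sensors and translocation components, and all 36 were found among the 52636 genes counted. J110 cells came from mammary tumours of transgenic mice that expressed AIB1 cDNA from the MMTV LTR, and were grown in DMEM/F-12 with foetal bovine serum, insulin and hydrocortisone. SSM3 cells came from mammary tumours of mice of the 129SvEv strain, and were grown in DMEM/F12 with HEPES, more serum, L-glutamine, β-mercaptoethanol, hydrocortisone, insulin, holo-transferrin and more CO2. Each line was represented by 3 biological replicates, and neither line received a treatment. A line is 1 tumour-derived population, and its culture medium differed with it, so the line and the medium cannot be told apart.

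Proteins that enter the secretory pathway are threaded into the ER through the Sec61 channel, folded by luminal chaperones, and joined by disulfide bonds that oxidases and disulfide isomerases form. Chains that fail to fold are pulled back into the cytosol and degraded by ERAD. When unfolded chains accumulate, the sensors IRE1, PERK and ATF6 start the UPR, which raises the transcription of chaperone and ERAD genes, and luminal mammary cells, which can make large amounts of milk protein, are among the secretory cells that rely on this pathway.

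The promoters of many UPR target genes carry the ER stress response element (ERSE), to which ATF6 and XBP1 bind. It was searched on both strands, as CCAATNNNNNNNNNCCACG, in windows from 250 bases before to 50 bases after each start site in RefSeq (GRCm38.p6). A window was matched for 30 of the 36 listed genes, and 10 of the 30 (33.3%) held an ERSE, against 37 of all 27025 genes with a window (0.137%). Known UPR targets were picked for the list by name, so this contrast describes the list and is not a test. The 10 genes were Hspa5, Hsp90b1, Dnajc3, Creld2, Calr, Canx, Pdia6, Ero1lb, Syvn1 and Derl3, and Hsp90b1 held 2 copies. The stretches below are shown for 6 of these genes because their transcripts differed in different directions between the lines. Each is written along the gene's strand, and the capitals mark the ERSE, which reads in reverse complement in Calr, Creld2, Ero1lb and the second copy of Hsp90b1.
Hspa5, chr2:34772005-34772063, forward strand: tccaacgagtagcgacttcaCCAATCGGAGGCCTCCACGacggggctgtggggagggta
Hsp90b1, chr10:86705513-86705676, reverse strand: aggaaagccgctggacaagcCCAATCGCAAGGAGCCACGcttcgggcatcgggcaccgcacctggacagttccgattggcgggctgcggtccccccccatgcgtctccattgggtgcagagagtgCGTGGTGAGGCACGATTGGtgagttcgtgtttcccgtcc
Calr, chr8:84847055-84847113, reverse strand: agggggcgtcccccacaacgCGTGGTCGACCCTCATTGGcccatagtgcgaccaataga
Canx, chr11:50325780-50325838, reverse strand: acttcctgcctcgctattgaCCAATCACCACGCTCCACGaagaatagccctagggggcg
Creld2, chr15:88819500-88819558, forward strand: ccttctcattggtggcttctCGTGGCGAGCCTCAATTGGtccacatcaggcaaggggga
Ero1lb, chr13:12565662-12565720, forward strand: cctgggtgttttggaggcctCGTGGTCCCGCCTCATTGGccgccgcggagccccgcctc

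The related element ERSE-II, which joins the same short motifs closely as ATTGGNCCACG, lay in the windows of Dnajb11 and Herpud1, 2 of 30 listed genes against 0.0444% of all genes. The window of Herpud1 also held TGATGCAA, the core of the element bound by ATF4 (in 1.03% of all genes), and no listed gene held TGACGTGG, an XBP1 element present in 0.714% of all genes. A match describes only the letters of the window.

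Total counts ranged from 4200785 to 5416305 per library. Levels are given as CPM, counts relative to sequencing depth with library sizes scaled by the TMM method, and 3 counts corresponded to between 0.578 and 0.668 CPM. Ncoa3, the gene of AIB1, averaged 21.2 CPM in J110 and 39.9 in SSM3, so it was not higher in the line from the transgenic mice, and 3′ tags of the gene's own end need not count a transgene's transcript. This gene therefore does not check the labels. Of 8 luminal epithelial markers 7 were higher in SSM3, with averages in J110 and SSM3 of 0.681 and 507 CPM for Epcam, 4.02 and 1370 CPM for Cdh1, 0.139 and 367 CPM for Pgr and 3.68 and 41.7 CPM for Esr1, and the libraries of the lines did not overlap for any of these 4. Krt8 was also higher in SSM3 (1270 and 2270 CPM), and the one marker that was lower was Krt18 (1430 and 970 CPM). Of 4 basal markers Krt14 was higher in SSM3 (1.46 and 5.91 CPM), Trp63 had no count in J110 and 6, 7 and 9 counts in SSM3, Krt5 was at or below 3 counts in every library, and Acta2 averaged 0.130 and 0.820 CPM. Fibroblast markers summed to between 0.398 and 1.98 CPM in every library, and of 4 leukocyte markers 3 were at or below 3 counts in every library and Cd68 was lower in SSM3 (18.5 and 1.42 CPM). Of 4 plasma cell markers Jchain was at or below 3 counts in every library, Sdc1, which epithelial cells also express, averaged 336 CPM in J110 and 49.2 in SSM3, Cd38 averaged 3.68 and 0.0742 CPM, and Mzb1 went the other way, with no count in J110 and 9, 6 and 12 counts in SSM3. The ribosomal RNA locus of chromosome 17 took 15.1% to 17.2% of counts in J110 and 0.779% to 1.27% in SSM3. In a fit without the genes of this locus, 10 listed genes were higher in SSM3 and 12 lower (edgeR adjusted p below 0.05), the same numbers as with them. The part of the other differences in the results was not tested. SSM3 replicate 3 stood apart, as 124 of 10504 genes with at least 5 CPM lay below 0.5 times the lower of both other replicates there, against 2 to 6 genes in each of the other 5 libraries, and Eif2ak3 was among them.

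The summed level of the 36 ER genes depended on the denominator. They made up 0.540%, 0.525% and 0.513% of all counts in J110 and 0.638%, 0.613% and 0.598% in SSM3, where every SSM3 library was higher. Outside the ribosomal RNA locus they made up 0.635%, 0.627% and 0.619% in J110 and 0.646%, 0.618% and 0.605% in SSM3, ranges that overlapped. Their CPM summed to 5634, 5556 and 5576 in J110 and to 5969, 5725 and 5700 in SSM3, again without overlap, and the ratio of the means was 1.04. Within this sum single genes differed in both directions. Of the 36 genes, 34 passed the filter on low counts and were tested with edgeR's quasi-likelihood test at an adjusted p of 0.05. In this test 10 were higher in SSM3, 12 were lower and 12 did not pass.

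Those 22 called genes are 64.7% of the 34 tested, where 77.9% of all 12284 genes tested were called, 38.6% as higher and 39.2% as lower. A change of at least 2-fold was reached by 8 genes (23.5%), 3 higher and 5 lower, where the share over all genes was 43.7%, with 21.2% higher and 22.5% lower. For 25 of the 34 genes the values of J110 and SSM3 were separate, with no overlap, against 79.6% of all genes. The median log2 fold change, SSM3 against J110, was -0.12 for the listed genes and -0.014 for all genes, and the median size of the change regardless of sign was 0.43 and 0.84. These shares and sizes were not matched for level. Of all genes tested, 1143 were at or below 3 counts in every library of only 1 line, and of the listed genes 0 were. When library size alone was used in place of TMM, the median of all genes moved to 0.16, the split of called listed genes became 13 higher and 9 lower, and that of the genes changed at least 2-fold became 5 and 5.

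**Figure D1:**
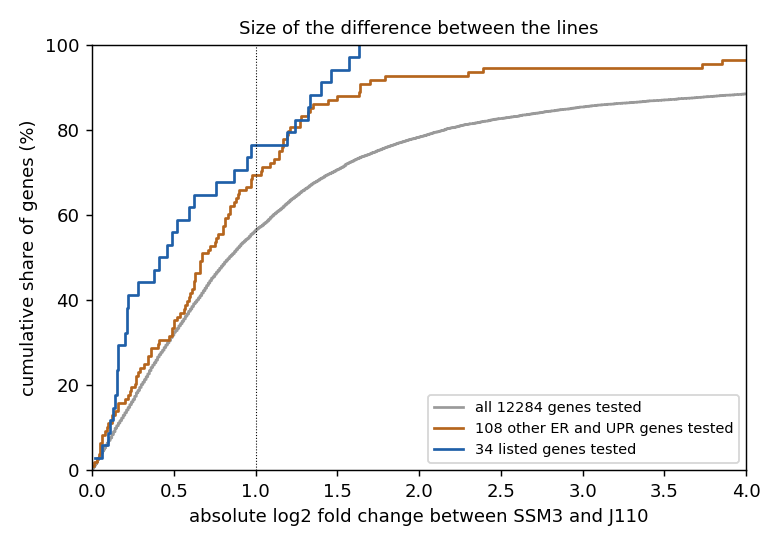
Cumulative share of genes (vertical axis, %) by the absolute log2 fold change between SSM3 and J110 (horizontal axis, cut at 4), for the 34 listed genes, 108 other ER and UPR genes and all 12284 genes tested. The dotted line marks a 2-fold change, which 23.5% of the listed genes and 43.7% of all genes reached or passed with an adjusted p below 0.05. The sets are not matched for level.

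**Figure D2:**
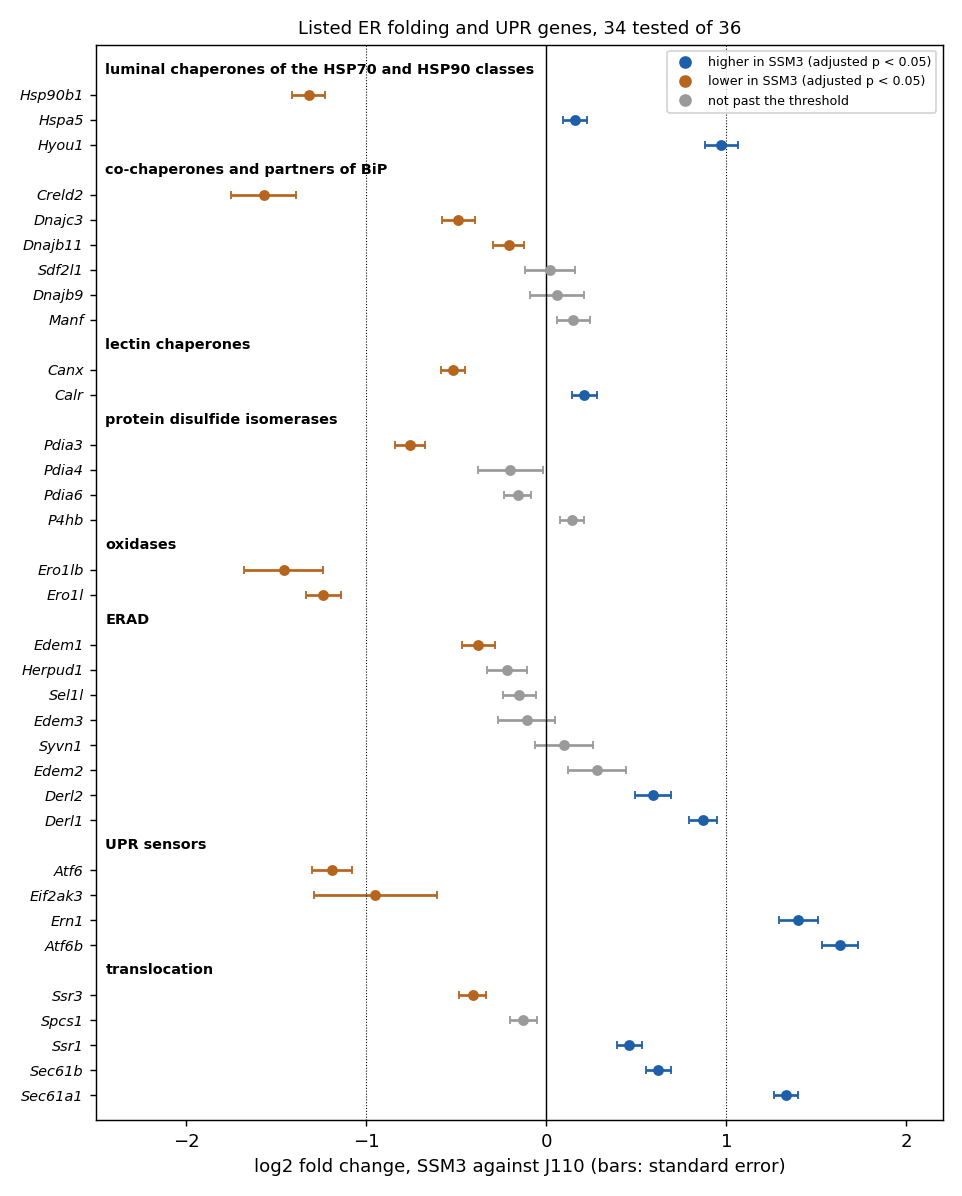
Log2 fold change, SSM3 against J110, of the 34 listed genes tested, grouped by role, with bars for the standard error and dotted lines at a 2-fold change in each direction. Creld2 (-1.57), Ero1lb (-1.46), Hsp90b1 (-1.32), Ero1l (-1.24) and Atf6 (-1.19) lie beyond the line on the left, and Atf6b (1.63), Ern1 (1.40) and Sec61a1 (1.33) beyond that on the right.

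The major luminal chaperones differed unequally between the lines. Hspa5 (ENSMUSG00000026864, chromosome 2 of mm10 from 34771970 to 34777547) encodes BiP, the HSP70 chaperone of the ER lumen that also holds the UPR sensors inactive. It was counted at 737, 695 and 679 CPM in J110 and at 798, 803 and 751 CPM in SSM3. The groups did not overlap, but the difference was small, at 0.16 on the log2 scale (standard error, SE, 0.066; edgeR adjusted p = 0.0407). It fell short of the threshold in 10 of 18 alternatives to the processing, with edgeR adjusted p values up to 0.204, among them the omission of any single library except SSM3 replicate 3.

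Hsp90b1 (ENSMUSG00000020048, chromosome 10 from 86690209 to 86705509), which encodes GRP94, the HSP90 chaperone of the ER, was counted at 557, 465 and 580 CPM in J110 and at 236, 212 and 194 CPM in SSM3. All 3 J110 libraries lay above all 3 SSM3 libraries, and the log2 difference was -1.32 (SE 0.092, edgeR adjusted p = 1.24e-09). In bulk RNA a lower level can come from fewer expressing cells or from less RNA per cell, which cannot be told apart. The ratio of Hspa5 to Hsp90b1 counts within a library does not depend on the scaling between libraries, and it was 1.32, 1.49 and 1.17 in J110 and 3.38, 3.79 and 3.87 in SSM3. This pair was chosen after its values were seen, and the ratio is given without a test.

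Hyou1, which encodes GRP170, a large HSP70-like protein that exchanges the nucleotide of BiP, went the other way from Hsp90b1. It was counted at 94.8, 93.2 and 87.4 CPM in J110 and at 195, 187 and 157 CPM in SSM3. The SSM3 libraries were all higher, with a log2 fold change of 0.97 (SE 0.092, edgeR adjusted p = 6.03e-08).

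Of the 6 co-chaperones and partners of BiP, 3 were lower in SSM3, none was called higher, and 3 did not pass, which is 50% called beside 77.9% of all genes. Creld2, an ER-resident protein with EGF-like domains that is induced by ER stress, changed most of all 36 genes downwards. It was counted at 39.5, 40.7 and 29.2 CPM in J110 and at 12.2, 15.1 and 9.55 CPM in SSM3, which is -1.57 on the log2 scale (SE 0.18, edgeR adjusted p = 5.04e-07). Dnajc3, which encodes the co-chaperone and PERK inhibitor P58IPK, was lower by a smaller amount, with a log2 fold change of -0.49 (SE 0.092) and means of 111 CPM in J110 and 79.0 CPM in SSM3. Dnajb11, which encodes the BiP co-chaperone ERdj3, had a log2 fold change of -0.21 (SE 0.085, edgeR adjusted p = 0.0305), a call that was lost in 7 of 18 alternatives. These were the omission of J110 replicate 1 (edgeR adjusted p = 0.0800), SSM3 replicate 2 (0.0735) or SSM3 replicate 3 (0.0638), DESeq2 (0.0772), testing every gene with any count (0.104), a threshold of 0.01, and library size scaling alone, which brought it to -0.039.

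The remaining partners of BiP did not pass the test. Dnajb9, which encodes ERdj4, a co-chaperone that is a target of spliced XBP1, was counted at 16.0, 15.6 and 14.4 CPM in J110 and at 14.7, 15.9 and 17.3 CPM in SSM3, and the lines overlapped. Its log2 difference was 0.060 with 95% limits of -0.26 and 0.38. Sdf2l1, a partner of the ERdj proteins, had a log2 fold change of 0.019 (95% limits -0.27 and 0.31), and Manf, a secreted and ER-retained stress protein, had 0.15 (95% limits -0.045 and 0.34), although Manf passed at 0.25 without SSM3 replicate 2 (edgeR adjusted p = 0.0223) and at 0.32 with library size scaling alone (edgeR adjusted p = 0.00508).

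The lectin chaperones calreticulin and calnexin, which hold newly made glycoproteins, differed in opposite directions. Calr, for the soluble lectin calreticulin, was counted at 382, 373 and 385 CPM in J110 and at 460, 413 and 441 CPM in SSM3, which is 0.21 on the log2 scale (SE 0.068, edgeR adjusted p = 0.0111). Canx, for its membrane-bound relative calnexin, was counted at 399, 414 and 421 CPM in J110 and at 282, 286 and 294 CPM in SSM3, which is -0.52 on the log2 scale (SE 0.066, edgeR adjusted p = 2.20e-06). Neither gene's libraries overlapped between the lines. The call of Calr was lost without J110 replicate 2 (edgeR adjusted p = 0.0584) and at a threshold of 0.01, and that of Canx was kept in all 18 alternatives.

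Among the protein disulfide isomerases, which make and reshuffle disulfide bonds, 1 of 4 (25%) was called, beside 77.9% of all genes. Pdia3, whose product ERp57 works with both lectin chaperones, was counted at 333, 392 and 384 CPM in J110 and at 224, 198 and 233 CPM in SSM3, which is -0.76 on the log2 scale (SE 0.084, edgeR adjusted p = 3.79e-07). P4hb, which encodes PDI itself, had means of 425 CPM in J110 and 467 CPM in SSM3 and a log2 fold change of 0.14 (95% limits -0.0067 and 0.28), which with library size scaling alone was 0.31 (edgeR adjusted p = 5.78e-04). Pdia6 had -0.16 (95% limits -0.32 and 0.0038), with an adjusted p that ranged from 0.0198, without J110 replicate 3, to 0.850 with library size scaling alone, and Pdia4 had -0.20 (95% limits -0.59 and 0.18).

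Both ER oxidases, which pass electrons from disulfide isomerases to oxygen, were lower in SSM3. Ero1l, the widely expressed ERO1α (ENSMUSG00000021831, chromosome 14 from 45283087 to 45318771), was counted at 100, 95.3 and 93.3 CPM in J110 and at 41.4, 36.3 and 44.8 CPM in SSM3. The log2 difference was -1.24 (SE 0.096, edgeR adjusted p = 4.93e-09), and every J110 library was above every SSM3 library. Ero1lb, the ERO1β that is best known from pancreatic islets, was counted at 11.4, 13.6 and 13.4 CPM in J110 and at 4.45, 5.31 and 4.18 CPM in SSM3, and its log2 difference was -1.46 (SE 0.22, edgeR adjusted p = 1.12e-05). The calls of both held in all 18 alternatives. The medium of SSM3 cells alone held β-mercaptoethanol, a reducing agent, and its part in these values cannot be told apart from that of the line.

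**Figure D3:**
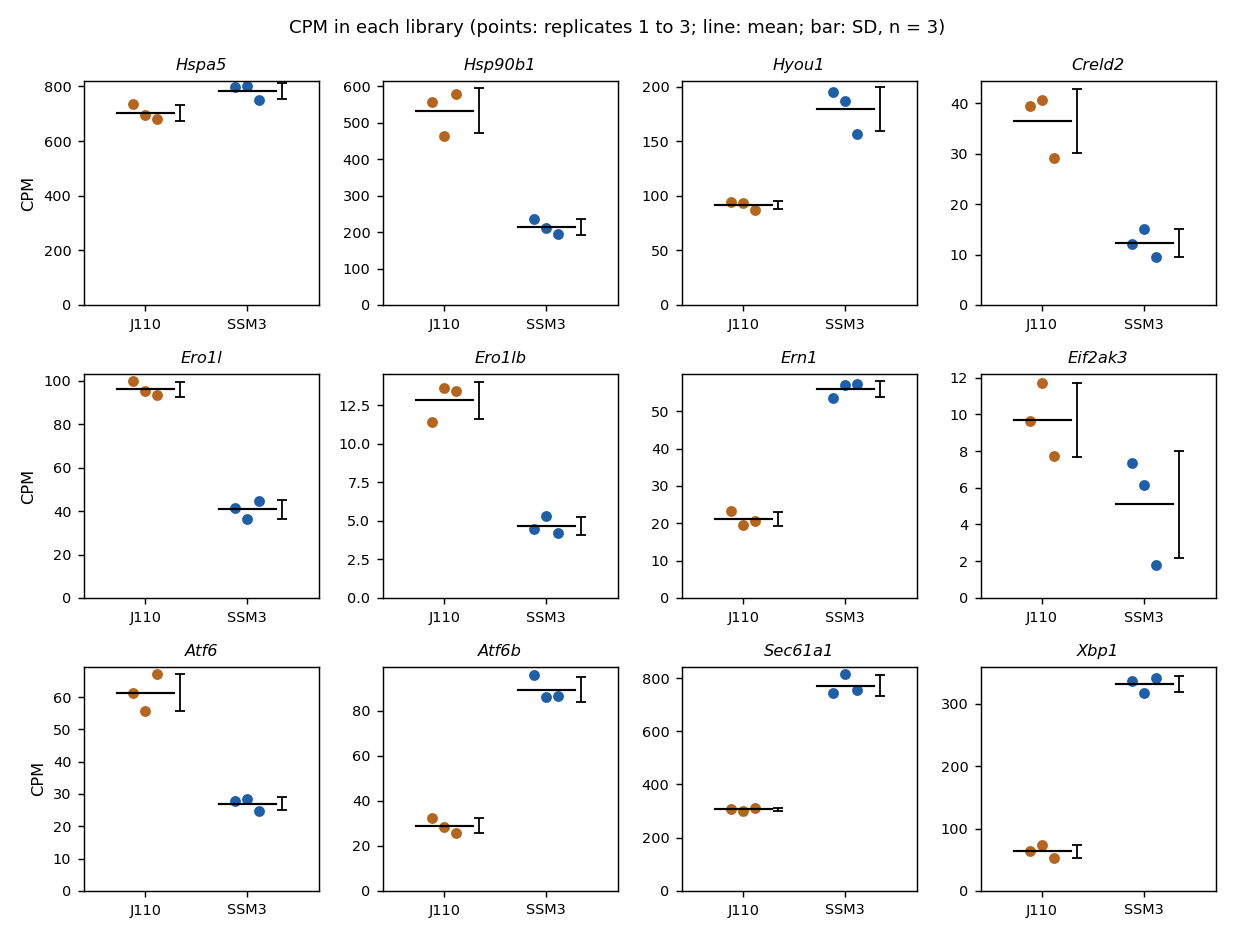
CPM of 11 listed genes and of Xbp1 in each library (vertical axes, from 0), with points for replicates 1 to 3 of J110 and SSM3, a line for the mean and a bar for the SD (n = 3). The 12 panels are a selection, and the lines do not overlap in any of them. Of the 34 listed genes tested, 25 had no overlap, beside 79.6% of all genes tested. SSM3 replicate 3 is low for Eif2ak3 at 1.79 CPM.

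Of 5 UPR sensor genes, 2 were higher in SSM3, 2 were lower and Ern2 was not tested, beside 38.6% of all genes higher and 39.2% lower. Ern1 (ENSMUSG00000020715, chromosome 11 from 106394650 to 106487852) encodes IRE1α, the kinase and nuclease that splices Xbp1 mRNA, and was counted at 23.3, 19.4 and 20.7 CPM in J110 and at 53.4, 56.9 and 57.3 CPM in SSM3. Its log2 difference was 1.40 (SE 0.11, edgeR adjusted p = 7.77e-09), kept in all 18 alternatives. Ern2, the IRE1β of mucus-secreting epithelia, had 3 counts in SSM3 replicate 3 and no count in any other library, so no difference was detectable at this depth.

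The ATF6 relatives differed in opposite directions. Atf6 (ENSMUSG00000026663, chromosome 1 from 170704674 to 170867771) encodes ATF6α, a membrane-bound factor that is cut in the Golgi and then activates chaperone genes. It was counted at 61.1, 55.8 and 67.2 CPM in J110 and at 27.8, 28.5 and 24.7 CPM in SSM3, which is -1.19 on the log2 scale (SE 0.11, edgeR adjusted p = 5.03e-08). Atf6b (ENSMUSG00000015461, chromosome 17 from 34647146 to 34655074), its weaker relative ATF6β, was counted at 32.4, 28.5 and 25.9 CPM in J110 and at 96.0, 86.0 and 86.4 CPM in SSM3, which is 1.63 on the log2 scale (SE 0.10, edgeR adjusted p = 3.70e-10). This was the largest rise among the 36 genes, and both calls held in all 18 alternatives.

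Eif2ak3 encodes PERK, the sensor kinase that phosphorylates eIF2α and so reduces translation. It was sparsely counted, at 9.64, 11.7 and 7.72 CPM in J110 and at 7.35, 6.16 and 1.79 CPM in SSM3, with only 9 counts in SSM3 replicate 3. The groups did not overlap, and the log2 difference was -0.95 (SE 0.34, edgeR adjusted p = 0.0170). Without SSM3 replicate 3 it was -0.52 with an adjusted p of 0.0689, and without J110 replicate 2 it was -0.80 with an adjusted p of 0.0852. With library size scaling alone it was -0.77 (edgeR adjusted p = 0.0512), and it also missed an adjusted p of 0.01. The call was thus lost in 4 of the 17 alternatives in which Eif2ak3 was tested.

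Shares within gene families give the same contrast free of the scaling between libraries. A 3′ tag library counts transcript ends and not transcript length, so a share is of 3′ counts and only its change between lines is read. Atf6 made up 65.4%, 66.2% and 72.2% of the counts of Atf6 and Atf6b in J110 and 22.5%, 24.9% and 22.2% in SSM3. Ero1l made up 88.3% ± 1.35 of the counts of both oxidases in J110 and 89.7% ± 2.18 in SSM3 (SD, n = 3 each), shares that overlapped, while both genes were lower in SSM3.

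Calr made up 48.0% ± 0.795 of the lectin chaperone counts in J110 and 60.4% ± 1.47 in SSM3, and within the 4 disulfide isomerases Pdia3 made up 33.0% ± 2.08 and 22.4% ± 1.25 and P4hb 38.0% ± 1.45 and 47.9% ± 1.53 (SD, n = 3 each). With 3 libraries against 3, the exact two-sided permutation test cannot go below p = 0.1. That value was reached for 8 of the 13 shares tested, those without overlap between the lines, and it became 0.163 after Benjamini-Hochberg adjustment over the 13, so no share passed the threshold.

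**Figure D4:**
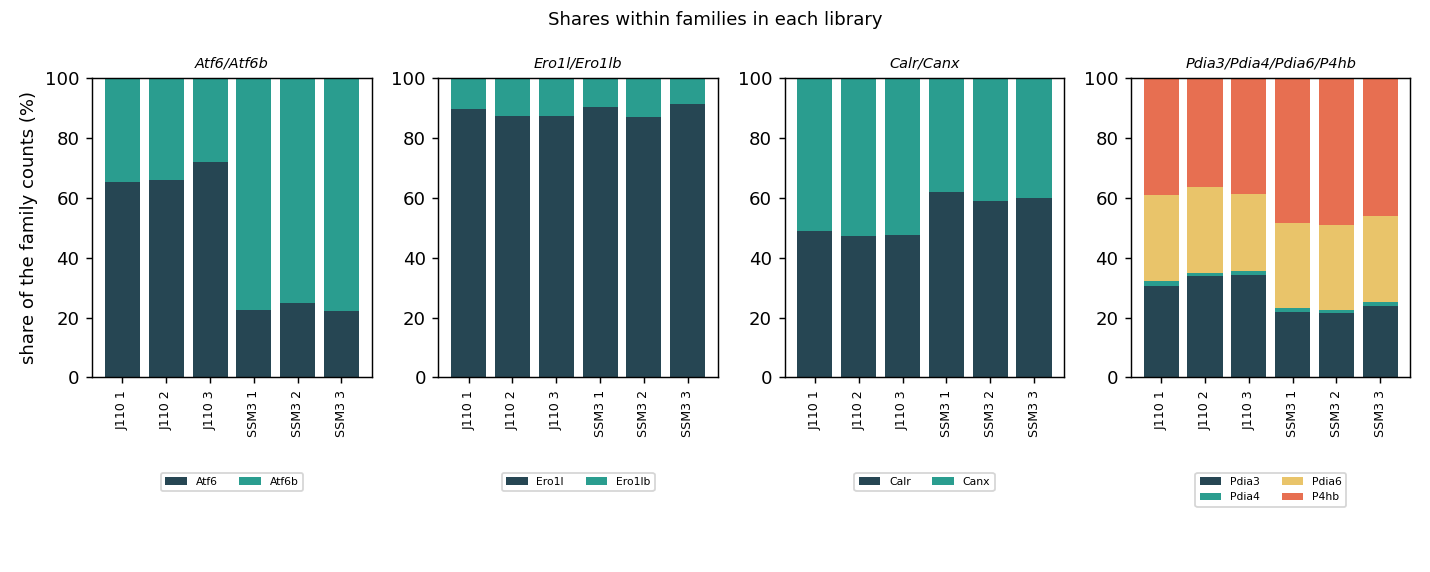
Share of each gene (%) in the counts of its family in each of the 6 libraries, for Atf6 and Atf6b, both ER oxidases, the lectin chaperones and 4 protein disulfide isomerases. Atf6 lies between 65.4% and 72.2% in J110 and between 22.2% and 24.9% in SSM3, and the share of Ero1l between 87.2% and 91.5% in all libraries.

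The derlins led the ERAD genes. Of 9 listed, 2 were higher, 1 was lower, 5 did not pass, and Derl3, which is restricted to secretory tissues, had no count in any library, which at this depth allows a level of up to 0.668 CPM. The share called was 37.5% of the 8 tested, beside 77.9% of all genes. Derl1, a membrane protein of the retrotranslocation channel, was counted at 107, 98.1 and 105 CPM in J110 and at 188, 186 and 193 CPM in SSM3, which is 0.87 on the log2 scale (SE 0.076, edgeR adjusted p = 2.19e-08). Its relative Derl2 had a log2 fold change of 0.59 (SE 0.10, edgeR adjusted p = 6.31e-05). Derl2 shares exon bases with Mis12 on the opposite strand, which was lower in SSM3 at -1.02 on the log2 scale. The strand setting of the counting is not given in the sources used here. Sec61a1 and its antisense gene Gm44170 had 1591 and 1511 counts in J110 replicate 1, so reads of shared exons may have entered both counts. Exons of Hsp90b1, Eif2ak3, Syvn1, Spcs1, Manf, Pdia6 and Pdia3 also overlap those of a gene on the opposite strand.

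The other ERAD genes cover the mannose-trimming and ubiquitin ligase steps. Edem1, which hands misfolded glycoproteins to ERAD, was lower with means of 57.4 CPM in J110 and 44.2 CPM in SSM3, which is -0.38 on the log2 scale (SE 0.092, edgeR adjusted p = 0.00135), and library size scaling alone raised its adjusted p to 0.0613. Its relatives Edem2, at 0.28 (95% limits -0.073 and 0.62), and Edem3, at -0.11 (95% limits -0.45 and 0.23), did not pass, although without J110 replicate 3 Edem2 passed at 0.42 (edgeR adjusted p = 0.0459) and with library size scaling alone at 0.45 (edgeR adjusted p = 0.0174). Sel1l and Syvn1, the adaptor and the ligase HRD1 of the central ERAD complex, had log2 fold changes of -0.15 (95% limits -0.34 and 0.043) and 0.096 (95% limits -0.25 and 0.44).

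Syvn1 was counted at 51.9, 42.5 and 28.7 CPM in SSM3, lowest in replicate 3, and without that library its log2 difference was 0.30 with an adjusted p of 0.0293. Herpud1, a strongly ER stress-induced scaffold of the same complex, was counted at 40.7, 42.3 and 38.4 CPM in J110 and at 37.0, 30.8 and 36.8 CPM in SSM3. The libraries did not overlap, but the log2 fold change of -0.22 (95% limits -0.45 and 0.024) missed the threshold with an adjusted p of 0.0918.

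Of 5 translocation genes, 3 were higher in SSM3, 1 was lower and 1 did not pass, where 38.6% of all genes were higher. Sec61a1, the pore of the channel, was counted at 307, 301 and 312 CPM in J110 and at 744, 816 and 754 CPM in SSM3, which is 1.33 on the log2 scale (SE 0.068, edgeR adjusted p = 2.11e-11). The antisense gene Gm44170, which overlaps exons of Sec61a1, had nearly the same values, 291 CPM in J110 and 748 CPM in SSM3 on average, so reads of the pair cannot be told apart. Sec61b, a small subunit of the channel, had a log2 fold change of 0.62 (SE 0.069), with means of 208 CPM in J110 and 319 CPM in SSM3.

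The translocon-associated proteins Ssr1 and Ssr3, which assist the entry of some chains, went opposite ways. Ssr1 had a log2 fold change of 0.46 (SE 0.069) and Ssr3 of -0.41 (SE 0.074), with adjusted p values of 1.24e-05 and 1.01e-04 from edgeR's test. Spcs1, a subunit of signal peptidase, had -0.13 (95% limits -0.29 and 0.032).

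Of the 10 genes with an ERSE in the window, 9 were tested. Among them 2 were higher in SSM3 by small amounts, Hspa5 at 0.16, whose call was lost in 10 of 18 alternatives, and Calr at 0.21, 5 were lower (Hsp90b1, Dnajc3, Creld2, Canx and Ero1lb) and 2 did not pass (Pdia6 and Syvn1), beside 77.9% of all genes called, with log2 fold changes from -1.57 to 0.21 and a median of -0.49. Of the 20 matched genes without one, 5 were higher, 6 were lower and 9 did not pass, with a median of -0.12. No test of the difference between these groups was made.

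The wider pathway was described with 112 other ER and UPR genes in 9 lists, of which 108 were tested. Of these, 50 were higher in SSM3, 37 were lower and 21 did not pass, which is 80.6% called beside 77.9% of all genes, and the median log2 fold change was 0.10. Among the transcription factors and outputs of the UPR, 4 of 10 were higher and 5 lower, beside 38.6% and 39.2% of all genes. Xbp1, whose spliced mRNA makes the factor of the IRE1 arm, was counted at 63.2, 73.6 and 52.8 CPM in J110 and at 336, 317 and 342 CPM in SSM3, which is 2.39 on the log2 scale (SE 0.10, edgeR adjusted p = 1.81e-12). These 3′ counts do not separate spliced from unspliced Xbp1.

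Atf4, the factor of the PERK arm, had a log2 fold change of 1.09 (SE 0.084). Of 5 stress output genes in the same list, 4 of them chosen after their values were seen, Atf3 (1.79) and Trib3 (0.88) were higher and Ddit3 (-0.62), which encodes the pro-apoptotic factor CHOP, Chac1 (-1.64) and Ppp1r15a (-0.84), which encodes the eIF2α phosphatase subunit GADD34, were lower, all log2 fold changes past the threshold. Ppp1r15a was at -0.54 without SSM3 replicate 3 and at -1.27 without SSM3 replicate 1, and its call was lost without J110 replicate 3 and SSM3 replicate 2 together (edgeR adjusted p = 0.0657). Nfe2l2, which encodes the antioxidant factor NRF2, was lower with a log2 fold change of -1.70.

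Of the 11 tested partners and processing factors of the sensors, 4 were higher and 5 lower, which is 81.8% called beside 77.9% of all genes. Mbtps1, the Golgi protease that makes the first cut in ATF6, had a log2 fold change of 0.97 (SE 0.086, edgeR adjusted p = 2.43e-08), and Eif2s1, which encodes eIF2α, had -0.63 (SE 0.083). Tmbim6, a membrane protein that dampens IRE1, had -1.64, and Creb3l2, a relative of ATF6, had -1.28. Creb3l1, another relative, was at or below 3 counts in every SSM3 library and at least 5.85-fold lower there.

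All 9 tested genes of the lectin cycle and glycan trimming were higher in SSM3, from 0.47 to 2.30 on the log2 scale, where 38.6% of all genes were. They included both subunits of glucosidase II, with Ganab at 1.17, the glucosidase I gene Mogs at 1.11, the folding sensor Uggt1 at 0.61, its relative Uggt2 at 2.30 from low counts, and the cargo receptors Lman1 at 0.81 and Lman2 at 1.17. The calls of those given with a value held in each alternative in which the gene was tested. Among the other oxidoreductases, of which 66.7% were called, 4 of 12 were higher, led by the secreted sulfhydryl oxidase Qsox1 at 3.85 (means of 24.7 and 357 CPM), and 4 were lower, with Txndc5 at -0.87, while Tmx1 had 0.045 and passed only with library size scaling alone, at 0.22.

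Among the other co-chaperones and the prolyl isomerases 7 of 13 were higher and 4 lower, which is 84.6% called beside 77.9% of all genes. Stc2, a secreted glycoprotein induced by ER stress, had a log2 fold change of 4.76, from 2.54 CPM in J110 to 69.2 CPM in SSM3, and Dnajc1 had 0.90. Fkbp9, an ER prolyl isomerase, was at 66.1 CPM in J110 and at or below 3 counts in every SSM3 library, at least 104-fold lower. Of the 17 other ERAD genes 8 were higher and 5 lower (76.5% called), with Fam8a1 at 1.03, Ubxn4 at -0.83 and Vcp, the ATPase that extracts chains from the membrane, at 0.28.

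In the last 3 lists, read beside 38.6% of all genes higher and 39.2% lower, translocation and signal peptide cleavage had 7 of 13 genes higher and 5 lower, with the signal peptidase subunits Spcs2 at 1.21 and Spcs3 at -1.44, and Sec62 at -0.34. The oligosaccharyltransferase, which attaches N-glycans, had 4 of 10 higher and 3 lower, with Dad1 at 1.27, Rpn2 at 0.80 and the catalytic subunit Stt3b at -0.71. Among the KDEL receptors and COPII coat genes, which retrieve chaperones to and carry cargo from the ER, 3 of 13 were higher, with Kdelr1 at 0.58 and Sec23b at 0.66. Another 6 were lower, among them Sec23a at -1.63, Sec24a at -1.20, Sec24b at -1.32 and Sec24d at -1.14.

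**Figure D5:**
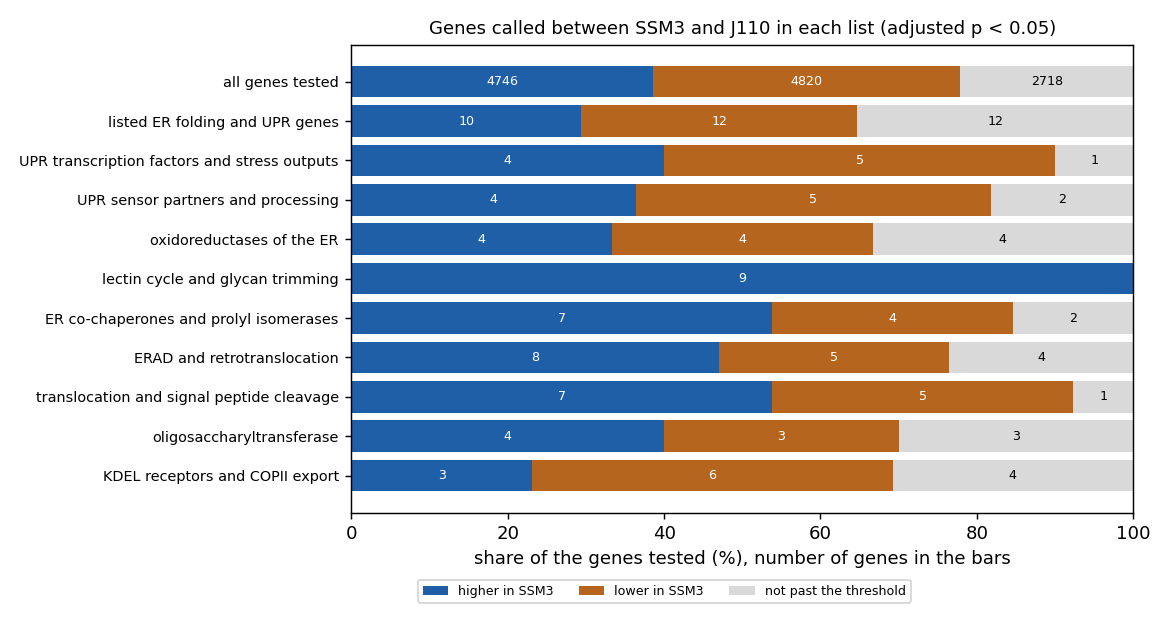
Share of the genes tested (horizontal axis, %) that were higher in SSM3, lower in SSM3 or not past the threshold, for all genes, the listed genes and 9 lists of other ER and UPR genes, with the number of genes written in each bar. The lectin cycle list has 9 of 9 genes higher, and the listed genes have 12 of 34 not past the threshold.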

How the data were processed

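RNA of 3 libraries each of J110 and SSM3 cells was sequenced from 3′ ends (QuantSeq kit). Per the submitters' processing notes, the authors used bcl2fastq (2.17.1.14), cutadapt (2.1), HISAT2 (2.0.4, mm10) and featureCounts (Subread 2.0.0), and deposited raw counts without normalisation. Strand and multi-gene settings are not given in the sources used here. GENCODE M21 symbols matched 99.7% of identifiers.

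Genes passing filterByExpr were tested with edgeR's quasi-likelihood test (edgeR 4.0.16, limma 3.58.1, R 4.3.3) after TMM scaling, with Benjamini-Hochberg adjustment over 12284 genes. Standard errors are the log2 fold change divided by the square root of F. On simulated data for this comparison (11971 genes) 99 of 99 genes changed by 2 on the log2 scale and 82 of 98 changed by 1 were recovered. Of 11774 unchanged genes 9 were called. The simulation gave all genes 1 common dispersion and changed few of them, whereas 77.9% of genes were called in the data. Its recovery therefore need not hold for the real comparison. DESeq2 (1.42.0), limma-voom, other scalings, filters, depth, threshold, a replicate block and left-out libraries were tried as alternatives.

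The 36 genes and the lists were chosen with earlier results of these data known. All 36 are named. From each further list the gene with the highest level and the called genes with the largest change each way are named, with Xbp1, Atf4, Ddit3 and Ncoa3. An item of the design is not reported here. Atf3, Trib3, Chac1, Ppp1r15a, Creb3l2, Tmbim6, Ganab, Mogs, Uggt1, Lman1, Sec24a, Sec24b, Sec24d, Srpr, Ost4, Sdf2, Mis12, Epcam, Cdh1, Pgr, Esr1, Krt8, Krt18, Krt5, Krt14, Trp63, Acta2, Cd68, Jchain, Sdc1, Cd38, Mzb1 and Gm44170 were named after their values were seen. No molecular identifiers are described, so count limits cover counting error only. Replicates of a line differed by more than sampling noise (chi-square per degree of freedom from 2.21 to 5.62). No protein sequences were used here.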

Additional observations from a re-analysis of the deposited data

How the results depend on the processing

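Over 18 alternatives, 19 of the 34 listed genes tested kept their direction and side of the threshold throughout. The number of listed genes called higher ranged from 8 to 13 and lower from 9 to 13, and all genes called ranged from 7288 (at least 10 counts in every library, which tests fewer genes) to 11123 (at least 1 count in any library, which tests more). Of 46 other genes followed, 40 kept direction and side throughout.

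Library size alone, which shifts every gene, gave 5 listed genes at least 2-fold higher and turned Pdia6 to 0.017, Edem3 to 0.069, Sel1l to 0.028, Spcs1 to 0.049 and Sdf2 to 0.17, none of them past the threshold before or after. Thinning gave -0.0026 for Dnajb9, -0.0016 for Sdf2l1 and 0.0071 for Sdf2, upper-quartile scaling -0.013 for Sdf2l1, and a filter of 1 count 0.0090 for Sdf2. Leaving out each library in turn, or J110 replicate 3 and SSM3 replicate 2 together, gave ranges from -0.0011 to 0.12 for Dnajb9, -0.099 to 0.12 for Sdf2l1, -0.31 to 0.056 for Edem3, -0.10 to 0.30 for Syvn1, -0.031 to 0.10 for Tmx1, -0.58 to 0.035 for Ost4 and -0.40 to 0.37 for Sdf2.

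The replicate block gave 9 listed genes higher and 12 lower, 3 and 5 of them at least 2-fold, 50 and 37 of the other ER and UPR genes, and 9481 genes in all, 4705 higher and 4776 lower. Hspa5 lost its call there (adjusted p = 0.0592), and no other listed gene did. Deviations of same-numbered libraries correlated at 0.012, 0.015 and 0.027 across genes, so the numbers are not shown to pair the libraries, although each correlated best with its own number. Levels of 3 counts or fewer per library were not read as differences. The causes of these changes were not tested.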

Other observations

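SSM3 replicate 3 was low for a set of genes against both other SSM3 replicates. Besides Eif2ak3, 3 of the 104 other ER and UPR genes looked at lay below 0.5 times the lower of them. Srpr, the receptor of the signal recognition particle, was counted at 42.1, 36.3 and 13.9 CPM in the 3 SSM3 replicates, Ost4, a small oligosaccharyltransferase subunit, at 29.8, 30.8 and 10.9 CPM, and Sdf2, a stress-independent relative of Sdf2l1, at 71.7, 53.5 and 20.1 CPM. Sdf2 had a log2 fold change of -0.013 with all libraries and 0.37 (adjusted p = 0.00755, edgeR's quasi-likelihood test) without SSM3 replicate 3. Over all genes looked at this held for 1.18% in SSM3 replicate 3 and for 0.019% to 0.0571% in the others. Exons of Eif2ak3, Srpr, Ost4 and Sdf2 overlap those of a gene on the opposite strand, as do exons of many other ER and UPR genes followed here. The cause of the low counts was not tested.

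Among the other ER and UPR genes with a promoter window, TGACGTGG was present in 7 of 90 (7.78%), in Txndc5, Txndc11, Vcp, Ube2j1, Kdelr3, Sec23a and Sec24d, against 0.714% of all genes, while none of the 90 held an ERSE.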
